A study of Mus musculus with 6 samples.

Results

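The genes described here encode apical-basal polarity proteins: Crb3 of the Crumbs complex, Pard3, Pard6b, Prkci and Prkcz of the Par complex, Scrib, Dlg1 and Llgl2 of the Scribble group, and Marveld2, which encodes tricellulin. These 9 genes were chosen by name and matched to the annotated gene symbol of the probe sets, and all 9 were found among the 18193 genes of the array. A gene's value is that of its brightest probe set, judged by the mean of the 6 arrays, and its other probe sets served as a check. The RNA came from NMuMG, an immortalised line of mouse mammary epithelium, and the medium held serum and insulin in every group. Control cells received vehicle, the TGF-β group received 4 ng/ml of the cytokine for 11 days, and the withdrawal group received the same 11 days and then 13 days without it. There were 2 arrays in each of the 3 groups, all of a single line, and nothing in the labels shows that they came from separate cultures, so the tests rest on a spread that may be technical. The description field of the labels assigns the names of the epithelial and mesenchymal transitions the other way round from the treatment field, and the treatment field was followed. In bulk RNA, fewer cells of a type and less RNA per cell cannot be told apart.

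Epithelial cells separate an apical surface from a basolateral one by protein complexes that exclude each other at the membrane. The Crumbs complex and the Par complex, built of the scaffolds Par3 and Par6 with atypical protein kinase C, mark the apical side and the tight junction, while Scribble, Dlg and Lgl mark the basolateral side, and atypical protein kinase C phosphorylates Lgl to keep it there. TGF-β is known to loosen these junctions, in part through Snail and Zeb repressors that bind the E-box CACCTG, and TGF-β receptors are known to act on Par6 itself.

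After 11 days of TGF-β, 6 of the 9 genes were lower than in control (Marveld2, Pard6b, Llgl2, Prkcz, Crb3 and Scrib), 1 was higher (Dlg1) and 2 did not pass (Pard3 and Prkci). Over all genes 32.4% passed in this comparison, 17.5% lower and 15.0% higher. Without the dimmest 40% of genes, 6243 of 10916 passed, beside 6 of the 8 members left. After withdrawal Marveld2 and Pard6b were above their TGF-β level and below control, Llgl2 was above its TGF-β level with no passing difference from control, Prkcz was above both, and Dlg1 was higher again. Scrib was below control with no passing difference from TGF-β, and Crb3 differed from neither group by a passing amount. A difference passed at a Benjamini-Hochberg adjusted p below 0.05 over all genes in limma, a linear model with moderated spread fitted to all 6 arrays. All levels and differences below are on the log2 scale, where a difference of 1 is a doubling.

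Start regions are shown because Crb3, Pard6b, Prkcz and Marveld2 were all lower under TGF-β. RefSeq's table for GRCm38.p6 held 15 windows for 7 of the 9 genes, each running from 250 bases before to 50 bases after an annotated start; Llgl2 and Scrib are named only. Each line gives the first listed window, 5′ to 3′ as the table gives it, with the E-box CACCTG or its reverse CAGGTG in capitals.
Crb3 (chr17:57061951-57062250, plus strand): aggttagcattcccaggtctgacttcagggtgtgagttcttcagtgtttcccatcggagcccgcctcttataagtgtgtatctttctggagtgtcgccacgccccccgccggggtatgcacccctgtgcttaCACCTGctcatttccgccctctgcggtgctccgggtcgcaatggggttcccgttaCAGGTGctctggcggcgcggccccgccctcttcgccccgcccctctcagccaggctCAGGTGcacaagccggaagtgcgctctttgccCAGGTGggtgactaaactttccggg
Pard6b (chr2:168080754-168081053, plus strand): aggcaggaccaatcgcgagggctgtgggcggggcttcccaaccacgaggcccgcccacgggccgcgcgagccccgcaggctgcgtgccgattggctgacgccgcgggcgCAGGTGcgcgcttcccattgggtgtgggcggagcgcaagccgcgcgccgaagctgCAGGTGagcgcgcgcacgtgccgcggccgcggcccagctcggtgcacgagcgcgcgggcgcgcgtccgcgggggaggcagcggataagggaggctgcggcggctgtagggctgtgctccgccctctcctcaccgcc
Prkcz (chr4:155361379-155361678, minus strand): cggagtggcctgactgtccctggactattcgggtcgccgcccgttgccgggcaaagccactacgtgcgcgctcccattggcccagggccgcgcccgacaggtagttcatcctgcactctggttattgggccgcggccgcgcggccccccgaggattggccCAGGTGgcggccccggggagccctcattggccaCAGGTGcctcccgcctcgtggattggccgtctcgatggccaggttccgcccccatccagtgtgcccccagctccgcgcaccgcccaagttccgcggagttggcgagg
Marveld2 (chr13:100616922-100617221, minus strand): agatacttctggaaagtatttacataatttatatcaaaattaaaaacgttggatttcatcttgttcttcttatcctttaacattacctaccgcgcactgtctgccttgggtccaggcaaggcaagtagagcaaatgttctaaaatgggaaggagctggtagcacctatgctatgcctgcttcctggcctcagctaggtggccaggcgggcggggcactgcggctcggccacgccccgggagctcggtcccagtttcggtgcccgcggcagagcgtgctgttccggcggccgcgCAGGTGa
The Crb3 window held 4 matches, Pard6b and Prkcz 2 each, and Marveld2 1, which began at base 44 after the start. Over all 32851 windows of this length, 20.2% held at least 1 match, 2.88% held 2 or more and 0.0548% held 4 or more. The second Crb3 window and the second Marveld2 window overlap the printed ones and held 4 matches and 1. The second and the third Prkcz window held 0 and 1. Of the genes that did not fall, Prkci had 0 matches, Dlg1 had 1 match over its 4 windows, and Pard3 had 3 in its second window and 0 in its first. A second motif, the Smad box CAGAC or its reverse GTCTG, was present in 8 of the 15 windows, against 49.6% of all windows, with 0 matches in the Pard6b window. No match of one motif overlapped a match of the other. Matching letters show neither binding nor regulation.

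**Figure D1:**
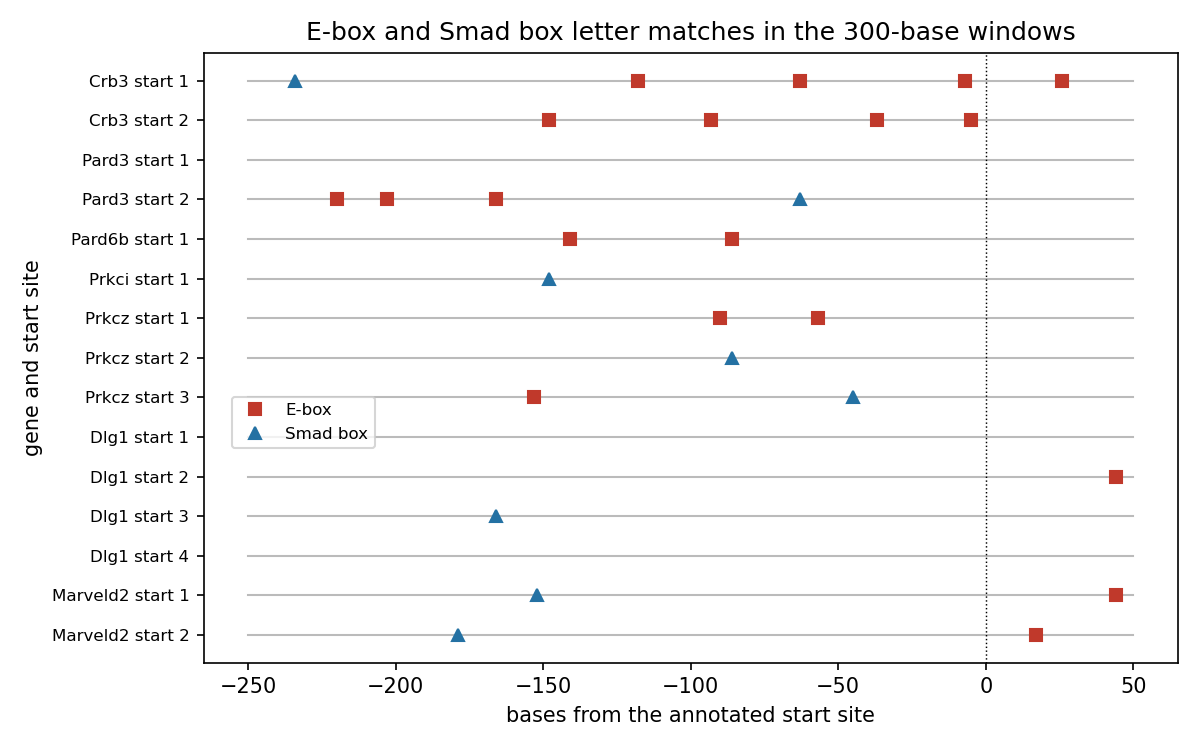
Each line is a 300-base window around an annotated start site of a polarity gene (horizontal axis, bases from the start; vertical axis, gene and start site), with red squares for E-box and blue triangles for Smad box letter matches. Both Crb3 windows carry 4 E-box matches, and the Prkci window carries 0.

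The array medians lay between 5.77 and 5.79, the lower quartiles between 4.36 and 4.39, and replicate arrays had a Pearson's r of 0.998 across probe sets, which are not independent replicates. No detection calls were used, so a value near the lower quartile is not separated from background and its difference may be understated. Of the 6 epithelial markers, Cdh1, which encodes E-cadherin, read 12.0 and 11.9 in control, 8.37 and 8.25 under TGF-β, and 11.8 on both withdrawal arrays. The keratin genes Krt8 and Krt18 lay between 13.4 and 14.3 on every array, were lower under TGF-β by -0.73 and -0.53, and remained below control after withdrawal at -0.94 and -0.53. Epcam differed by 0.19 under TGF-β without passing and fell by 0.27 on withdrawal, while Cldn3 and Cldn7 passed in none of the comparisons and Cldn7 lay between 4.85 and 5.11. The mean of the 5 mesenchymal markers was 10.7 on both control arrays, 13.4 on both TGF-β arrays and 11.3 on both withdrawal arrays. On withdrawal Acta2, Tagln and Vim fell by 5.48, 5.75 and 0.23, whereas Fn1 and Cdh2 rose by 0.46 and 0.41 and ended 2.11 and 1.17 above control. The mean of the 6 macrophage and leukocyte markers was 6.01 and 6.03, 5.76 and 5.77, and 6.14 and 6.21 in the same order, with Cd14 at -1.58 under TGF-β and 1.86 on withdrawal and the defining gene Ptprc between 3.79 and 4.05. Cd68 rose by 1.05 on withdrawal and ended 0.88 above control, where Cd14 ended 0.28 above, and the other 4 passed in neither comparison. The 5 endothelial and 3 adipocyte markers had means of 4.75 to 4.90 and 4.16 to 4.34, and the part of these markers in the results was not tested.

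Crb3 encodes the small transmembrane Crumbs protein of epithelia, which holds the Crumbs complex at the apical membrane. Its chosen probe set read 7.82 and 7.99 in control, 7.65 and 7.33 under TGF-β, and 7.77 and 7.80 after withdrawal. The TGF-β arrays were the lowest and overlapped neither other group. The TGF-β difference was -0.42 ± 0.12 (SE) at a limma adjusted p of 0.0384, and the difference on withdrawal, 0.30 ± 0.12, did not pass (adjusted p = 0.0865) but passed in 6 of 15 alternative settings. Withdrawal minus control was -0.12 (adjusted p = 0.462) and passed in 2 of the 15, at -0.18 and -0.50. The TGF-β call was lost in 7 of 15 alternative settings. Among them were those without the first or second control array or the second TGF-β array (difference -0.26). The call was also lost without either withdrawal array, but these settings are the same fit as the compared groups alone. The second Crb3 probe set read 7.54 and 7.55, 7.10 and 7.05, then 7.43 and 7.37 in the same order. The dimmest read 7.64 and 7.47, 6.50 and 6.61, then 7.17 and 7.37. On both, the TGF-β arrays were the lowest. Their TGF-β differences were -0.47 and -1.0 (adjusted p = 0.00187 and 6.66e-04 over all probe sets), and both rose on withdrawal, by 0.33 and 0.72 (adjusted p = 0.00516 and 0.0017). Over all 34945 probe sets, 27.2% passed under TGF-β, 39.6% on withdrawal against TGF-β and 40.8% on withdrawal against control.

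Pard6b encodes the Par6β scaffold, which links Cdc42 to atypical protein kinase C. It read 7.16 and 7.38 in control, 5.86 and 5.68 under TGF-β, and 6.39 and 6.29 after withdrawal. The groups did not overlap, and the withdrawal arrays lay between the other groups. Under TGF-β it was lower by -1.50 ± 0.10 (2.83-fold, adjusted p = 1.39e-04), and 1.28% of all genes had a lower difference. It rose by 0.57 ± 0.10 on withdrawal (adjusted p = 0.00475) and was then at -0.93 ± 0.10 from control (adjusted p = 5.68e-04). Its second probe set gave -1.87, 0.50 and -1.37 for the same comparisons, and each passed. Of the paralogs for Par6α and Par6γ, Pard6a differed by -0.05 under TGF-β and did not pass (adjusted p = 0.563), and Pard6g was higher by 0.25 (adjusted p = 0.0222), a sign that turned with poly-A spike scaling. Pard6g then fell by 0.50 on withdrawal. No test between the paralogs was made.

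Prkcz, which encodes the ζ form of atypical protein kinase C, read 6.90 and 6.89 in control, 6.31 on both TGF-β arrays, and 7.10 and 7.22 after withdrawal. The TGF-β arrays were the lowest, the withdrawal arrays the highest, and no groups overlapped. The TGF-β values were identical to all digits deposited, as were those of 94 of 45101 probe sets between these arrays, so their SD of 0 says nothing about the spread. Prkcz was lower under TGF-β by -0.58 ± 0.06 (adjusted p = 7.56e-04) and rose on withdrawal by 0.85 ± 0.06 (adjusted p = 1.00e-04). It ended 0.27 ± 0.06 above control (adjusted p = 0.0117), a call lost in 4 of 15 settings (highest adjusted p 0.498), among them without either control array, and its sign turned with hybridization spike scaling (-0.11).

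All 3 Prkcz probe sets rose on withdrawal against TGF-β, and 2 of them were lower under TGF-β. The second read 6.02 and 6.07, 5.86 and 5.76, then 6.83 and 6.77, with differences of -0.24 under TGF-β, 0.99 on withdrawal and 0.75 against control, and each passed. The dimmest of the Prkcz probe sets differed by -0.11 under TGF-β and did not pass (adjusted p = 0.24), and rose by 0.23 on withdrawal (adjusted p = 0.0232). Against control it differed by 0.12 and did not pass (adjusted p = 0.164). RefSeq lists 3 start sites for this gene, and the files do not place the probe sets on its transcripts.

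Prkci, which encodes the ι form, read 10.75 and 10.77 in control, 10.80 and 10.77 under TGF-β, and 10.61 and 10.62 after withdrawal. Control and TGF-β arrays overlapped, and the withdrawal arrays were the lowest. The TGF-β difference was 0.02 ± 0.05 (adjusted p = 0.795). On withdrawal it fell by 0.17 ± 0.05 (adjusted p = 0.0327), a call lost in 10 of 15 settings (highest adjusted p 0.942). These included each setting that left out an array. Those without a control array are the same fit as the compared groups alone. The difference from control, -0.15, did not pass (adjusted p = 0.0503) but passed in 4 of 15. Over all probe sets neither of its 2 passed in any comparison, with -0.17 and -0.15 on withdrawal (adjusted p = 0.0522 and 0.0697).

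Pard3 encodes Par3, the scaffold that positions the Par complex at the forming tight junction. Its chosen probe set read 8.42 and 8.44 in control, 8.46 and 8.44 under TGF-β, and 8.66 and 8.61 after withdrawal. The first groups overlapped, and the withdrawal arrays were higher than both. The TGF-β difference was 0.02 ± 0.05 (adjusted p = 0.853). The rise on withdrawal, 0.19 ± 0.05 (adjusted p = 0.0255), was lost in 9 of 15 settings (highest adjusted p 0.853). Among these was each that left out an array but the second withdrawal array. Those without a control array are the same fit as the compared groups alone. Against control the difference was 0.20 ± 0.05 (adjusted p = 0.0182), lost in 5 of 15 settings (highest adjusted p 0.707), among them without either control array or the first withdrawal array. Both signs turned with hybridization spike scaling, to -0.03 and -0.17. Under TGF-β the 3 other probe sets of Pard3 differed by -0.0039, 0.25 and 0.12, and none passed. For the 0.25 the adjusted p was 0.0517 over all probe sets. On withdrawal they differed, in the same order, by 0.21, 0.24 and 0.31, and of these the 0.24 passed. That probe set, which read 5.91 and 6.07 in control and 6.46 and 6.49 after withdrawal, was 0.48 above control (adjusted p = 0.00234).

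Llgl2, which encodes the Lgl protein of epithelia that atypical protein kinase C phosphorylates, read 7.50 and 7.65 in control, 6.75 and 6.68 under TGF-β, and 7.47 and 7.49 after withdrawal. The TGF-β arrays stood apart below the others, and the withdrawal arrays lay just under the lower control array. It was lower under TGF-β by -0.86 ± 0.07 (1.82-fold, adjusted p = 2.50e-04), and on withdrawal it rose by 0.77 ± 0.07 (adjusted p = 2.49e-04). Withdrawal minus control was -0.10 ± 0.07 and did not pass (adjusted p = 0.302), but it passed with hybridization spike scaling, at -0.47. Its paralog Llgl1 differed by 0.16 under TGF-β without passing (adjusted p = 0.0614) and was 0.32 above control after withdrawal (adjusted p = 0.0031), a sign that turned with hybridization spike scaling.

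Scrib, which encodes the Scribble scaffold, read 8.42 and 8.45 in control, 7.99 and 8.09 under TGF-β, and 8.03 and 8.06 after withdrawal. The treated groups overlapped each other and lay below control. The differences from control were -0.39 ± 0.06 in each (adjusted p = 0.00346 under TGF-β and 0.00225 after withdrawal), and withdrawal minus TGF-β was 0.0025 ± 0.06 (adjusted p = 0.978). The gene has a single probe set.

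Dlg1, which encodes the membrane-associated guanylate kinase SAP97, read 9.50 and 9.46 in control, 9.84 and 9.89 under TGF-β, and 10.05 and 10.22 after withdrawal. The groups did not overlap and were ordered control, TGF-β, withdrawal. Under TGF-β it was higher by 0.38 ± 0.07 (adjusted p = 0.00886), a call lost in 5 of 15 settings (highest adjusted p 0.558), among them both spike scalings, without the second control array and without the second TGF-β array. The further rise of 0.27 ± 0.07 (adjusted p = 0.0221) was lost in 4 of 15 (highest adjusted p 0.724), among them without either TGF-β array or the second withdrawal array. Against control, withdrawal was higher by 0.65 ± 0.07 (adjusted p = 5.56e-04), lost only with hybridization spike scaling, at 0.27 (adjusted p = 0.052), of the 15 settings run. Its other probe sets did not pass under TGF-β, at 0.07 and 0.13, but passed against control after withdrawal, at 0.31 and 0.46. The probe set with 0.46 read 3.17 to 3.84, below the lower quartile of every array and so not separated from background.

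Marveld2 encodes tricellulin, the tight junction protein at corners where 3 cells meet. It read 6.30 and 5.82 in control, 4.13 and 4.16 under TGF-β, and 4.91 and 5.11 after withdrawal. The groups did not overlap, and both TGF-β arrays read below the lower quartile of their arrays. Against control, the TGF-β arrays were lower by -1.91 ± 0.16 (3.76-fold, adjusted p = 3.50e-04), and 0.781% of all genes had a lower difference. On withdrawal it rose by 0.86 ± 0.16 (adjusted p = 0.00647) and was then at -1.05 ± 0.16 from control (adjusted p = 0.00263). The control arrays differed by more than those of any other group of these 9 genes, with an SD of 0.35.

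**Figure D2:**
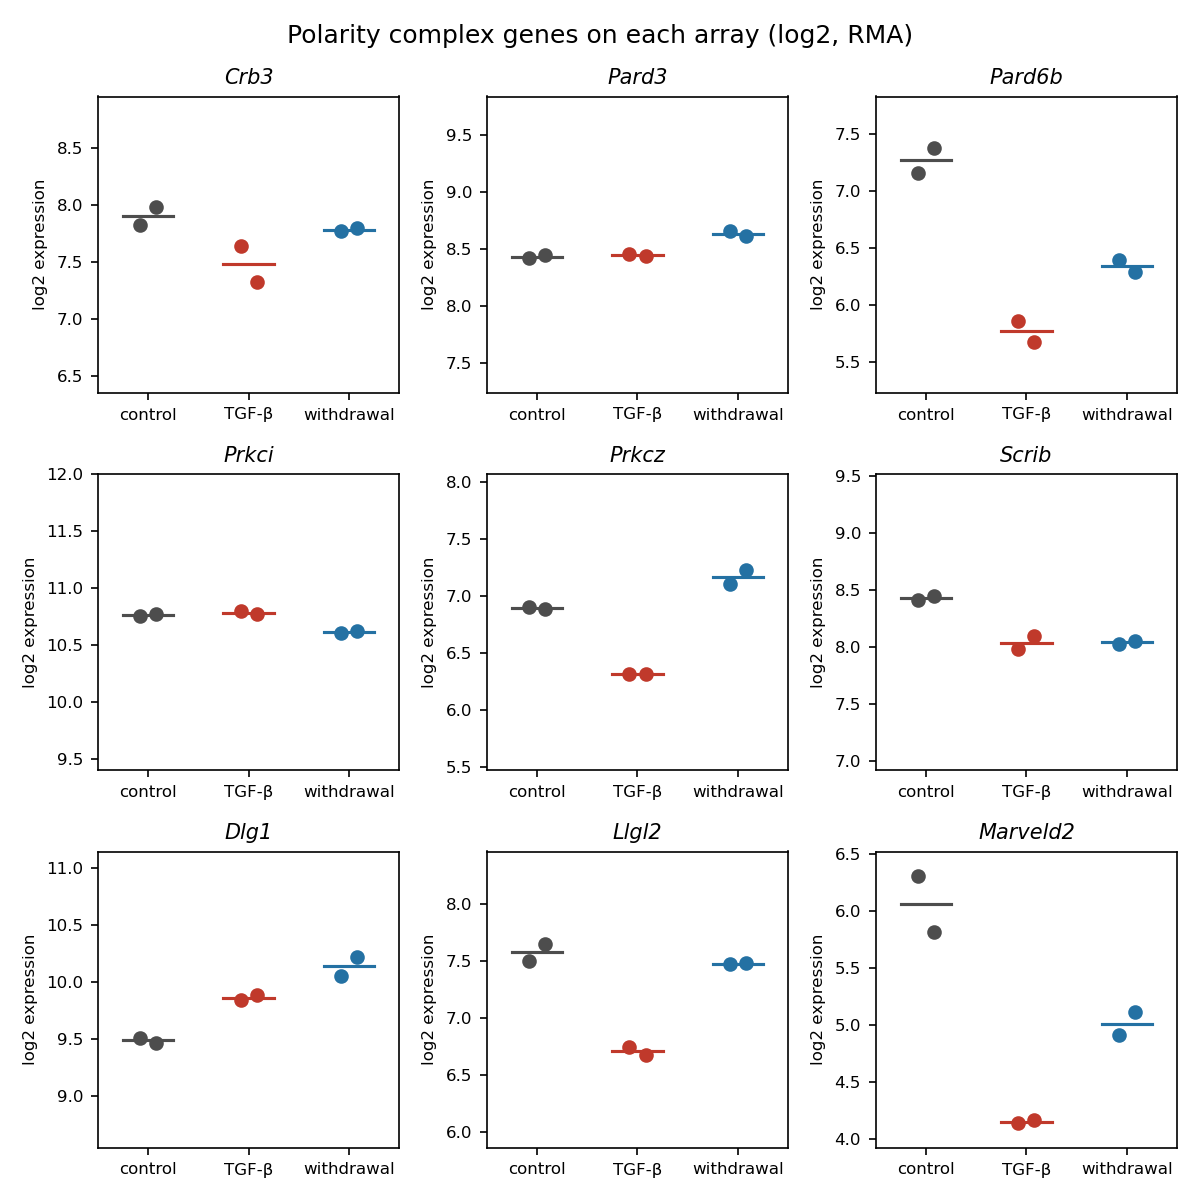
Log2 expression (vertical axis) of each polarity gene on every array, by group (horizontal axis), with a point per array and a bar at the group mean; every panel spans the same range. Marveld2 and Pard6b fall most under TGF-β and return partway, Llgl2 ends at -0.10 from control, and Scrib reads low in both treated groups.

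**Figure D3:**
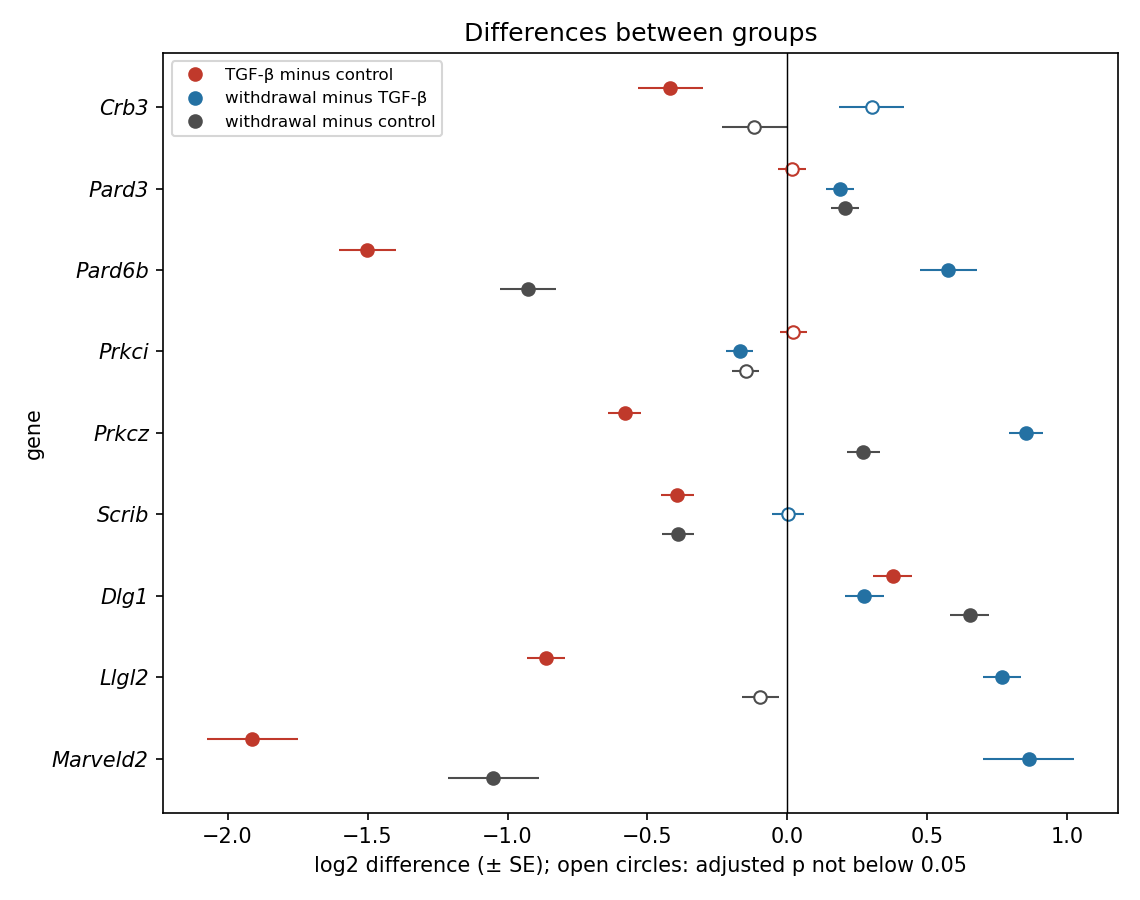
Log2 difference (horizontal axis, ± SE from limma, 2 arrays per group) of each gene (vertical axis) for the 3 comparisons; filled circles passed at an adjusted p below 0.05. The TGF-β differences run from -1.91 for Marveld2 to 0.38 for Dlg1.

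**Figure D4:**
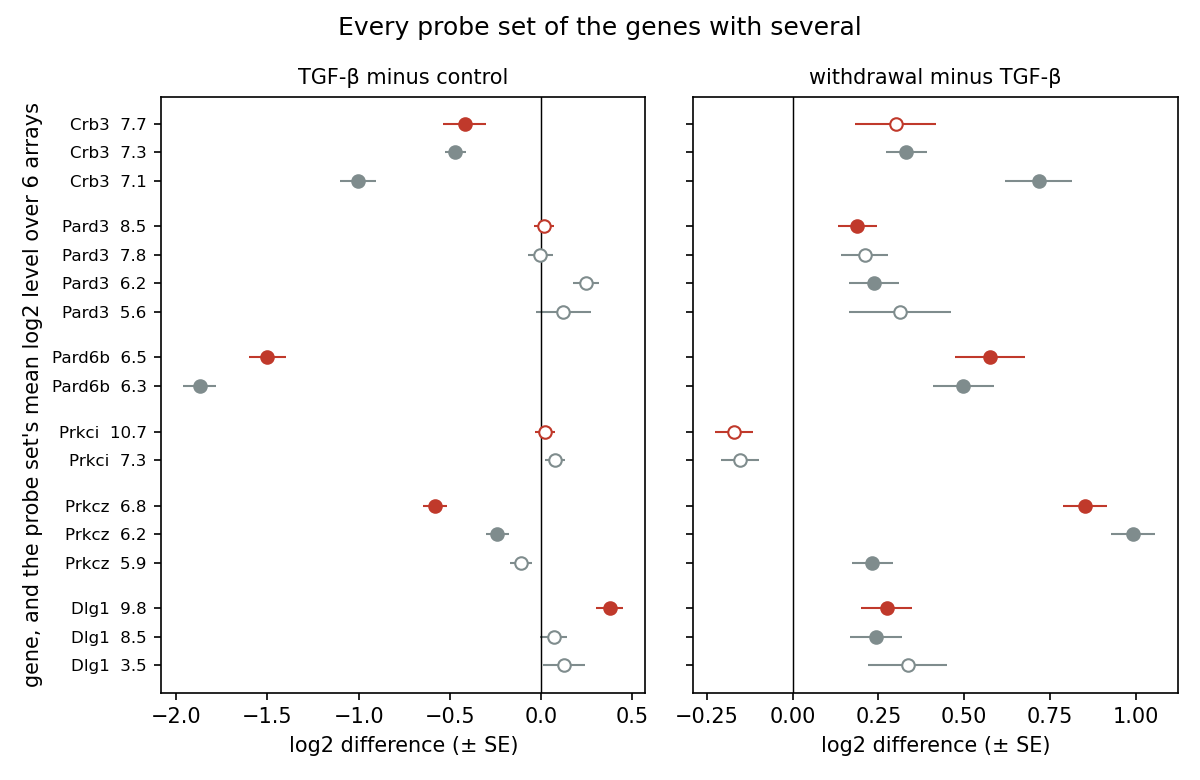
Log2 difference (horizontal axis, ± SE) of every probe set of the 6 genes that have several (vertical axis, gene and mean level), with the chosen probe set in red, the others in grey and filled circles passing over all probe sets. The Crb3 probe sets range from -0.42 to -1.0 under TGF-β, and the fall of Pard6b is present in both of its probe sets.

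The genes were picked with earlier results of these arrays known, so their counts stand beside those of all genes as a description. Under TGF-β 7 of 9 passed, beside 32.4% of all genes; the median difference of the 9 was -0.42 against -0.01 over all genes. On withdrawal against TGF-β 7 of 9 passed, 6 higher and 1 lower, where 43.9% of all genes did, with 21.8% higher and 22.1% lower; the medians were 0.30 and -0.03. Without the second TGF-β array fewer members passed, all of them higher, and fewer of all genes passed too. Withdrawal against control had 6 of 9, 3 higher and 3 lower, where 45.3% of all genes passed, with 21.7% higher and 23.6% lower; the medians were -0.12 and -0.04. Dim genes passed less often, and without the dimmest 40% of genes the shares over all genes were larger. Of the 10916 genes left, 6243 passed under TGF-β, 7625 on withdrawal and 7782 against control. Of the 8 members left, 6, 7 and 6 passed in the same order. The excess of the members over all genes was therefore smaller among brighter genes. The comparisons share arrays, so a group that reads high or low by chance enters more than a single comparison. The withdrawn cells had also spent 13 more days in culture than the TGF-β cells, and time in culture cannot be told apart from withdrawal. The sample titles give no culture time for control, so the comparisons with control may carry the same limit.

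Scaling the arrays to spiked RNAs moved all genes together. Each of the 9 genes then had the same SE, 0.165 with poly-A and 0.134 with hybridization spikes, so these calls rest on a common spread. The spike means also differed between replicates, such as 8.10 and 7.83 for poly-A in control and 11.35 and 11.17 for hybridization after withdrawal. Counts under spike scaling are therefore a description and not a test of a shared change. With poly-A spikes the median of all genes went to -0.27 under TGF-β, 0.11 on withdrawal and -0.16 for withdrawal against control; with hybridization spikes it went to -0.17, -0.25 and -0.42. The split of calls over all genes under TGF-β went from 2726 higher and 3175 lower to 903 and 5089 with poly-A spikes and to 1319 and 4408 with hybridization spikes. On withdrawal it went from 3960 and 4023 to 3672 and 1624, and to 2146 and 7772. Against control it went from 3943 and 4292 to 2136 and 3712, and to 1655 and 12634. Under both scalings, 6 of the 9 polarity genes were lower and 0 higher under TGF-β, and Dlg1 did not pass. Against control after withdrawal, 1 was higher and 3 lower with poly-A spikes, and 0 and 6 with hybridization spikes. On withdrawal against TGF-β the counts were 6 higher and 0 lower, and 4 higher and 1 lower. The changes above are therefore relative to the common level of the arrays.

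Other polarity and junction genes, 71 by name of which 66 were measured, were read the same way. Under TGF-β 29 were lower, 12 higher and 25 did not pass, with a median of -0.13. The lower genes were 43.9% of the list beside 17.5% of all genes, and the higher ones 18.2% beside 15.0%, which is close to the share of all genes. Without the dimmest 40% of genes, 27 of 52 list genes were lower and 14 higher. Over all 10916 genes left, 3381 were lower and 2862 higher. The split was 32 lower and 3 higher with poly-A spikes and 32 and 8 with hybridization spikes. Among the tricellular genes Lsr, which encodes the angulin that recruits tricellulin to cell corners, differed by -2.32 (adjusted p = 1.06e-05). Ildr2 of the same family differed by -1.46, and Ildr1 (3.09 to 3.46 on all arrays) did not pass. Of the MARVEL genes grouped with them, Ocln, which encodes occludin, differed by -3.29, Marveld1 was higher by 0.49 and Marveld3 did not pass. Of 10 apical trafficking genes 8 were lower and 0 higher (17.5% and 15.0% over all genes), with the small GTPase gene Rab17 at -1.90 and the myosin gene Myo5b at -1.21. The transcytosis gene Mal2 differed by -3.00, but its TGF-β arrays read 3.13 and 3.15, below the lower quartile of their arrays and so not separated from background. Of 14 partner junction and apical proteins 7 were lower and 3 higher, with Ezr, which links actin to the apical membrane, at -1.73 and the adhesion gene Nectin3 at 1.02.

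Beside 17.5% lower and 15.0% higher over all genes, the counts in small groups of relatives were as follows under TGF-β. Among 7 other Crumbs complex genes Patj, which encodes a PDZ scaffold, was lower by -1.18, Lin7c by -0.34, and Mpp5, which encodes the Crumbs-binding scaffold Pals1, was higher by 0.55. Among 7 other Par complex genes Tiam1, which encodes a Rac activator that binds Par3, was lower by -2.07 and Ect2 by -1.08, while Cdc42, the GTPase that binds Par6, was higher by 0.32 and Pard6g by 0.25. Among 7 other Scribble group genes Dlg3 rose from 5.04 and 4.91 to 6.81 and 7.06, a difference of 1.96 (adjusted p = 4.41e-05), with Dlg4 at 0.56, and Lrrc1 and Dlg5 were lower by -0.68 and -0.25. Of 9 kinases and scaffolds 4 were lower and 0 higher, namely Wwc1 (-0.72), Cab39 (-0.64), Ywhaz (-0.30) and Stk11 (-0.26), the last of which encodes the polarity kinase Lkb1. Of 6 angiomotin and Cdc42 regulator genes 3 were higher, Amotl2 (0.88), Amotl1 (0.64) and Arhgef18 (0.56), and Arhgap17 was lower (-0.58). Poly-A spike scaling turned the signs of 2 of the 41 calls, Pard6g and Nectin2, and hybridization spike scaling turned 0.

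**Figure D5:**
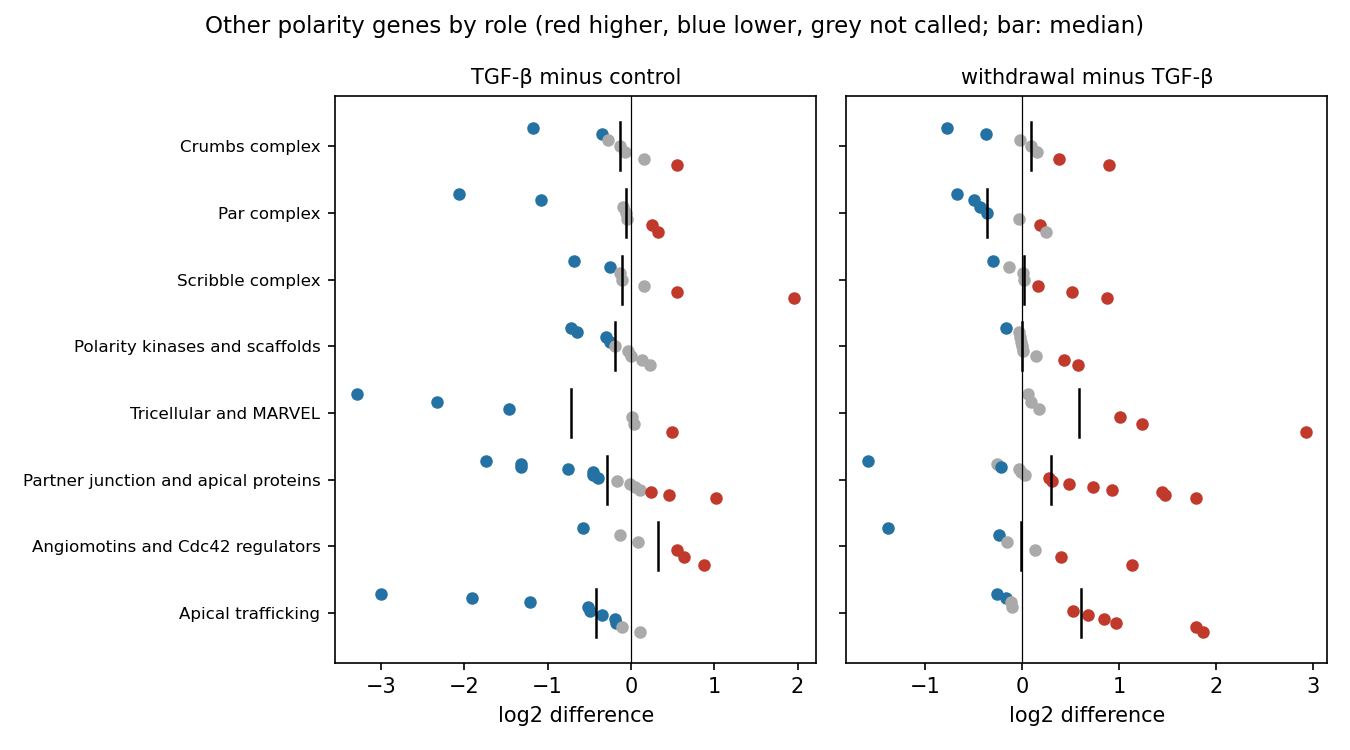
Log2 difference (horizontal axis) of 66 other polarity genes grouped by role (vertical axis), a point per gene, with the group median as a bar. Under TGF-β the medians of the 8 groups run from -0.72 (6 tricellular and MARVEL genes, none near that value) to 0.32 (angiomotins and Cdc42 regulators). On withdrawal they run from -0.36 (Par complex) to 0.60 (apical trafficking).

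On withdrawal against TGF-β 27 of the 66 were higher, 14 lower and 25 did not pass. The higher genes were 40.9% of the list beside 21.8% of all genes, and the lower ones 21.2% beside 22.1%, close to the share of all genes. Without the dimmest 40% of genes, 28 of 52 list genes were higher and 13 lower, beside 3864 and 3761 of 10916 genes. With poly-A spikes 25 were higher and 4 lower, and with hybridization spikes 18 and 19. Ocln rose by 2.93, Mal2 by 1.87 from its dim TGF-β level, Rab17 by 1.80, Podxl, which encodes an apical sialomucin, by 1.47 and Ezr by 1.44. Epb41l5, which encodes a FERM protein that binds Crumbs, read 6.98 on average under TGF-β and 8.78 after withdrawal, a rise of 1.80 (adjusted p = 1.36e-05). Nectin3 fell by 1.59, Amotl1 by 1.39, Mpp5 by 0.77, Ect2 by 0.67 and Cdc42 by 0.44. Hybridization spike scaling turned the sign of Rac1 and Llgl1, and poly-A scaling that of 0 of the 41 calls.

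Against control, 14 of the 66 were higher after withdrawal, 21 lower and 31 did not pass. Of the list 53.0% passed beside 45.3% of all genes, with 21.2% higher beside 21.7% and 31.8% lower beside 23.6%, so these counts are near the shares of all genes. Without the dimmest 40% of genes, 35 of 52 list genes passed beside 7782 of 10916 genes, a smaller share than over all genes left. With poly-A spikes 8 were higher and 19 lower. With hybridization spikes 55 passed, 6 higher and 49 lower, where 14289 of the 18193 genes passed. Above control were Dlg3 at 1.66, Epb41l5 at 1.63, the angiomotin gene Amot at 1.22, the Scribble relative Erbin at 0.76, Marveld1 at 0.66 and the retromer gene Vps35 at 0.66. Below it were Tiam1 at -1.82, Ect2 at -1.76, Mal2 at -1.13, Lsr at -1.08, Amotl1 at -0.75 and Anxa2 at -0.62. Lsr, like Marveld2, lay between its TGF-β and control levels, while Ocln differed from control by -0.36 and did not pass (adjusted p = 0.0936). Hybridization spike scaling turned the signs of Llgl1 and Mark2 here.

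Genes with the most similar array profile were sought for Pard6b and Marveld2, the members whose group means spanned at least 1. Likeness was the Euclidean distance over 6 arrays after subtracting each gene's control mean, among genes brighter than the median gene. Marveld2 itself was dimmer than this limit, so dim genes with a closer profile could not be listed for it. The distance picks genes whose differences resemble those of the member, so that likeness is not a separate result. Nearest to Pard6b were Rilpl2, Akr1c13 and Chn2, at distances of 0.186, 0.225 and 0.227, with TGF-β differences of -1.48, -1.49 and -1.56. Nearest to Marveld2 were Rnf130, Tpd52l1 and Fam241a, at 0.398, 0.407 and 0.437, with TGF-β differences of -1.89, -1.83 and -2.05.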

How the data were processed

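The authors deposited 1 log2 value per probe set and array, and per the submitters' processing notes the tool was RMA, a method that subtracts background, gives arrays the same quantiles and combines the probes of a set. The software that ran it is not given in the sources used. RNA was labelled with a 3' IVT kit, per the labels' protocols. Of 45101 probe sets, 64 controls were left out, 34945 had 1 gene symbol in the platform annotation and were used, 932 had several and 9160 none. Each of 18193 genes took its brightest probe set. The model was fitted with limma 3.58.1 in R 4.3.3 (lmFit, eBayes; 3 residual and 2.86 prior degrees of freedom; no covariates), two-sided, and was tested on simulated data. Other probe sets were tested in a second fit over all 34945. Tables and figures used Python 3.11.15, pandas 2.3.3 and matplotlib 3.10.9.

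The members and lists were chosen with earlier results of these data known. Named genes were the 9 members, per comparison up to 6 called genes of the wider list in each direction, and 3 nearest profiles per member that spanned at least 1; other names (counts of 5 or fewer, paralogs, marker genes) were picked after their values were seen. The 15 alternative settings were a replicate block, an intensity trend, a filter against the dimmest 40% of genes, averaging a gene's probe sets, leaving out probe sets ending in x, s or a, repeated quantile normalisation, poly-A and hybridization spike scaling, fits to the compared groups alone, and leaving out each array. For a comparison, leaving out either array of the remaining group gave the fit of the compared groups alone, so those settings are not separate.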

Additional observations from a re-analysis of the deposited data

How the results depend on the processing

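The falls of Pard6b, Llgl2, Scrib, Prkcz and Marveld2 under TGF-β, the rises of Pard6b, Llgl2, Prkcz and Marveld2 on withdrawal, and the lower levels of Pard6b, Scrib and Marveld2 against control kept their direction and passed in every setting that measured them; Marveld2 was absent without the dimmest 40% of genes, and Pard6b and Scrib without probe sets ending in x, s or a. Leaving out 1 array gave 5 to 7 members passing under TGF-β, 4 to 5 on withdrawal and 4 to 6 against control; the count of 4 on withdrawal came without the second TGF-β array, and that against control without either control array. Of all genes, 5296 passed on withdrawal with poly-A spike scaling (main 7983) and 14289 against control with hybridization spike scaling (main 8235), and of the wider list 55 against control with the latter (main 35). Hybridization spike scaling reversed Pard3 on withdrawal (-0.030) and against control (-0.17) and Prkcz against control (-0.11). The cause of each changed call was not tested. No shift shared by replicate number was visible, as differences between replicates 1 and 2 correlated across groups at -0.0162 to 0.00674. The labels do not say whether replicate numbers pair the arrays. With the replicate block 6, 6 and 6 members passed in the order TGF-β, withdrawal and against control, with Crb3 under TGF-β and Prkci on withdrawal no longer passing (adjusted p = 0.0677 and 0.0569). Over all genes 5519, 7688 and 7908 passed with the block, beside 5901, 7983 and 8235 in the main fit. The number of arrays, 2 a group, limits the precision, and Marveld2 had the largest SE of the 9 genes (0.16) with an SD of 0.35 between its control arrays.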
